A study of Mus musculus with 3 samples.

Results

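The SMOC and SPARC genes are 4 of the 32285 genes counted in these libraries and were taken by symbol: Smoc1, Smoc2, Sparc and Sparcl1. Earlier results of these data were known when they were chosen, and a rule that assigned cells to types was set after values were seen. Their levels were read in 3 single-cell libraries of the mouse soft palate, dissected at E14.5 from C57BL/6 embryos. The control group had 2 libraries and the mutant group, from Osr2-Cre;Alk5fl/fl embryos, had 1. Controls were Tgfbr1 fl/fl or Tgfbr1 fl/+ littermates according to the study. Alk5 is an older symbol of Tgfbr1, the type I receptor of TGF-β, and Osr2-Cre is active in the palatal mesenchyme. How many embryos went into a library was not given in the sources used here, and embryos were taken without regard to sex. With 1 mutant library the genotypes were compared by size against the gap between the 2 controls and with no test, whereas cell types were tested over the 3 libraries.

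SPARC is a matricellular protein, which means that it is secreted into the matrix and acts on cells and on collagen assembly instead of serving as a structural fiber. It binds collagen and is abundant in bone, in vessel walls and in tissue that is being remodelled. SPARC-like 1, the product of Sparcl1 and also called hevin, is its nearest relative and a familiar vessel and brain protein. SMOC1 and SMOC2 carry the same type of extracellular calcium-binding module as SPARC, joined to thyroglobulin-like domains, and are known in basement membranes and as modulators of BMP signaling. In the study that made these data, Smoc2 served as a marker of perimysial fibroblasts. They are a part of the perimysial cells, the connective tissue cells that surround the palatal muscles. The study reported reduced Smoc2 in mutant perimysial cells, both in these data and by in situ hybridization on sections.

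Because single-cell reads are short, the likeness of the genes bears on whether a read can be assigned to one of them. The most alike coding stretch of each pair is shown, but the reads come from the 3′ end of the transcript. The 3′ ends were not compared on their own, so these stretches do not settle how reads were assigned. Coordinates are those of GRCm38, and capitals mark bases that both genes of a pair share at the same place of the stretch. Smoc1 (ENSMUSG00000021136) lies at chr12:81026808-81186414 on the plus strand, with 12 exons in the transcript used here, and overlaps the miRNA gene Mir3067. Smoc2 (ENSMUSG00000023886) lies at chr17:14279506-14404790 on the plus strand, with 13 exons, and overlaps the antisense gene 4930474M22Rik. The 90 coding bases in which they are most alike lie in exon 8 of both genes, at chr12:81167579-81167668 and chr17:14368974-14369063, and 76 of the 90 bases (84.4%) were identical.
Smoc1: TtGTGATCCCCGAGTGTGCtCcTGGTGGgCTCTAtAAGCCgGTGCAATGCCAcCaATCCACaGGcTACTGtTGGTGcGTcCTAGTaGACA
Smoc2: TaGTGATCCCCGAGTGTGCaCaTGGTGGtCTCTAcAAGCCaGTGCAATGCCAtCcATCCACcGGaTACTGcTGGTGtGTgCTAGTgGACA
Sparc (ENSMUSG00000018593) lies at chr11:55394500-55423183 on the minus strand, with 10 exons, of which 9 are coding, and overlaps no other gene. Sparcl1 (ENSMUSG00000029309) lies at chr5:104079111-104113733 on the minus strand, with 11 exons, of which 10 are coding, and overlaps the antisense gene Gm26703. Their most alike 90 coding bases lie in exon 6 of Sparc, at chr11:55401951-55402040, and in exon 7 of Sparcl1, at chr5:104088397-104088486, with 71 identical bases (78.9%).
Sparc: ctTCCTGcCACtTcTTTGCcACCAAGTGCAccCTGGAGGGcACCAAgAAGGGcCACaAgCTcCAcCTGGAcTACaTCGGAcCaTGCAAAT
Sparcl1: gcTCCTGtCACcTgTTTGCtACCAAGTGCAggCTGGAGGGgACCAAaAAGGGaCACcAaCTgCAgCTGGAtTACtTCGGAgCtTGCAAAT
Across whole transcripts the longest identical run was 33 bases between Smoc1 and Smoc2, 14 between Sparc and Sparcl1 and at most 13 in the other pairs. The separation of Smoc2 and Sparcl1 from their antisense partners depends on counting by strand, and the strand setting was not given in the sources used here.

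Each library counts transcripts by unique molecular identifiers (UMIs), and a level is given as counts per 1000000 UMIs (CPM) summed over the cells of a type. The 3 libraries held 22624711 to 63505144 UMIs in 2816 to 8690 barcodes, of which 2031 (control 1), 3649 (control 2) and 7487 (mutant) were kept, with medians of 8126, 5193 and 5042 UMIs per cell. Between 18 and 49 barcodes were shared by any pair of libraries. Cells were put into 17 types by marker genes that do not include the 4 genes, and 11 types had at least 10 cells in every library, among them 80, 76 and 124 perimysial cells and 106, 138 and 225 epithelial cells without Krt6a, a keratin of the outer epithelial layer (periderm). Markers of different types conflicted in 374, 300 and 690 cells, and 117, 775 and 1714 cells reached no marker list. Both kinds stayed out of all types. Sums over all mesenchymal cells include 113, 174 and 455 cells that met more than 1 list of a mesenchymal subtype, with medians of 14287, 10270 and 20381 UMIs. The reads come from the 3′ end of the transcript and do not show the deletion: Tgfbr1 stood at 58.5, 61.5 and 52.0 CPM over all mesenchymal cells of control 1, control 2 and the mutant. RNA of other cells was unequal between the libraries, and no library had the most of every kind. Hemoglobin transcripts stood at 3979 CPM in perimysial cells of control 1 against 974 CPM in control 2 and 415 CPM in the mutant. In endothelial cells they stood at 3259, 859 and 4315 CPM. Col1a1, an abundant collagen gene of mesenchyme, stood at 132, 368 and 189 CPM in epithelial cells without Krt6a. Intervals in brackets are exact 95% Poisson intervals and cover counting error only.

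The 4 genes had 4 different distributions over the soft palate. Smoc2 was highest in Krt6a- epithelium and in perimysial cells, Sparc in endothelial cells with broad levels elsewhere, Sparcl1 in endothelial cells followed by perimysial cells, and Smoc1 was scarce in every type. Over the 11 types, the mean log2 levels of Sparc and Sparcl1 had a Pearson correlation of 0.67, those of Smoc2 and Sparc of 0.34, and those of Smoc2 and Sparcl1 of -0.03. These correlations describe 11 cell types that share the same 3 libraries. Counts of 3 UMIs or fewer were set to 3, which was so for Sparcl1 in both epithelial types and in myeloid cells of every library.

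**Figure D1:**
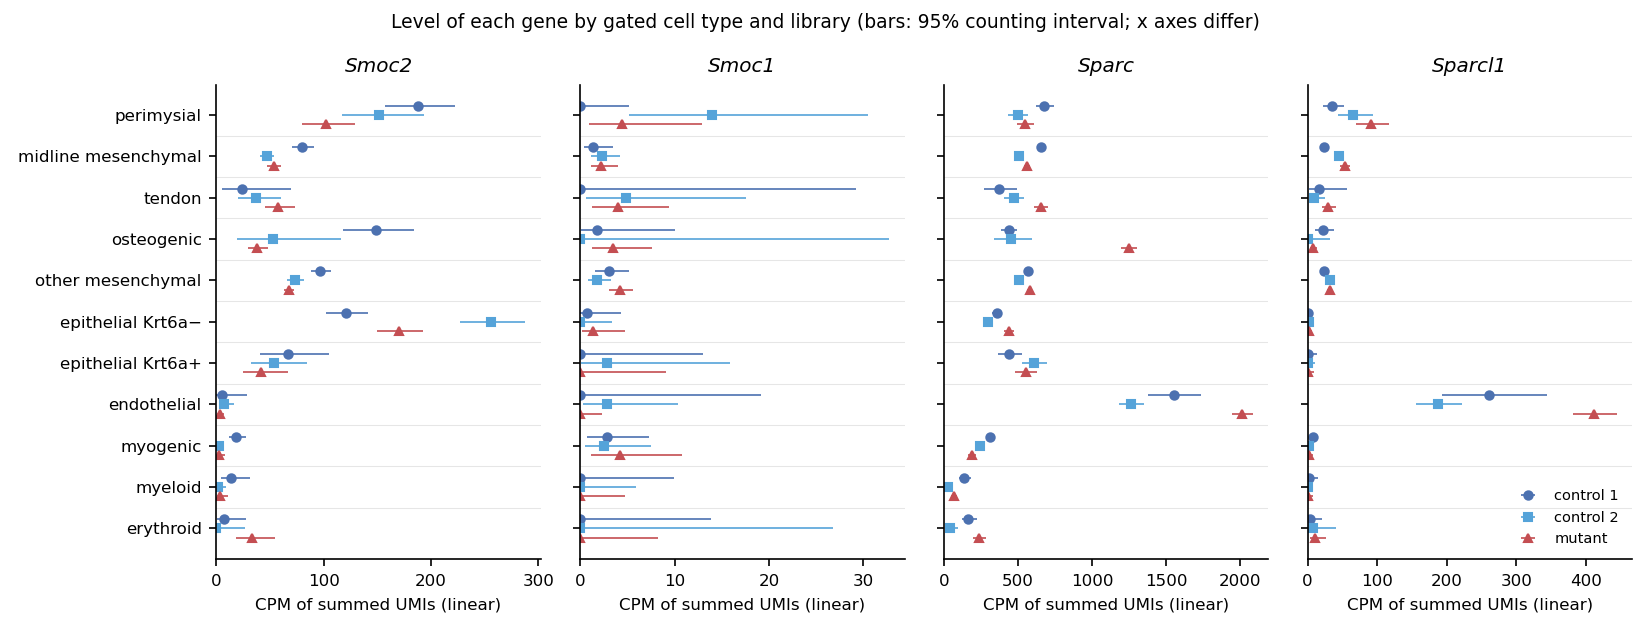
CPM of summed UMIs (x axis, linear, a different range for each gene) for the gated cell types (y axis) in control 1, control 2 and the mutant, with bars for the 95% counting interval. Smoc2 reached 121 to 256 CPM in Krt6a- epithelium, and endothelial cells held 1263 to 2017 CPM of Sparc and 187 to 411 CPM of Sparcl1.

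Smoc2 had its highest mean level in the epithelium and not in the mesenchyme. In Krt6a- epithelial cells it stood at 121 CPM [102 to 141] in control 1, 256 CPM [227 to 288] in control 2 and 170 CPM [150 to 192] in the mutant, a mean of 182 CPM ± 68.4 (SD, n = 3 libraries of both genotypes). Perimysial cells followed with 188 CPM [157 to 222], 152 CPM [117 to 193] and 102 CPM [79.3 to 129], a mean of 147 CPM ± 43.1 (SD, n = 3). The ranges of these leading types overlapped, and so did those of every pair of neighbours in the order of the 11 types. The middle of the order was held by osteogenic cells (148, 53.2 and 38.0 CPM), other mesenchymal cells (96.8, 73.5 and 67.7 CPM), midline mesenchymal cells (80.0, 46.9 and 53.4 CPM), Krt6a+ epithelium (67.1, 54.1 and 42.0 CPM) and tendon cells (23.8, 36.6 and 57.9 CPM). Osteogenic and midline cells were highest in control 1 and tendon cells in the mutant.

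Counts summed per type and library were compared with edgeR, a model for count data, with the library as a block. Set against the mean of the other types with its quasi-likelihood test and Benjamini-Hochberg adjustment over 10212 genes, Smoc2 was higher in Krt6a- epithelium by 2.42 ± 0.21 on the log2 scale (SE, adjusted p = 5.36e-12), where 17.7% of all genes were called higher. The same edgeR quasi-likelihood test put it higher by 1.95 ± 0.26 in perimysial cells (SE, adjusted p = 2.37e-07), with 12.8% of genes called higher, and by 1.05 ± 0.21 in other mesenchymal cells (adjusted p = 1.53e-04), with 19.2% called higher. In osteogenic cells the difference was 1.11 ± 0.31 (edgeR, adjusted p = 0.00884, 10.9% of genes called higher), but it rested on control 1, without which it was 0.63 (edgeR, adjusted p = 0.151). Smoc2 was lower in endothelial cells (5.2, 7.2 and 3.1 CPM), by -3.26 ± 0.55 (edgeR, adjusted p = 7.69e-06, 15.0% of genes called lower). It was lower as well in myeloid cells (13.4, 1.6 and 3.8 CPM), by -2.83 ± 0.61 (edgeR, adjusted p = 1.67e-04, 21.2% called lower), and in myogenic cells (18.6, 2.6 and 2.1 CPM), by -2.16 ± 0.42 (edgeR, adjusted p = 7.31e-05, 16.0% called lower). Midline cells, Krt6a+ epithelium, tendon cells and erythroid cells did not pass the edgeR quasi-likelihood test. Benjamini-Hochberg adjusted p of that edgeR test was 0.0591 in midline cells, 0.444 in Krt6a+ epithelium, 0.557 in tendon cells and 0.903 in erythroid cells.

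Perimysial cells were also set against other mesenchymal cells directly. Smoc2 was 0.82 ± 0.28 higher on the log2 scale in perimysial cells, which did not pass the edgeR quasi-likelihood test (adjusted p = 0.126, and 0.00305 when genes with low counts were kept). In this contrast 1.65% of genes were called higher.

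For each Col1a1 UMI, epithelial cells held many more Smoc2 UMIs than mesenchymal cells did. Smoc2 UMIs were set against those of Col1a1, the abundant collagen of mesenchyme, in each type, because free RNA would carry both in one ratio. The composition of the free RNA was not measured, and mesenchymal cells served as the reference. Over all cells kept, Smoc2 per Col1a1 UMI was 1.16, 1.57 and 1.20 times that of mesenchyme. The ratio was 14.4 times that of mesenchyme in Krt6a- epithelium of control 1, 18.3 times in control 2 and 23.6 times in the mutant. In Krt6a+ epithelium it was 10.0, 5.8 and 7.4 times. In myogenic cells it was 1.05, 0.68 and 0.66 times, on 26, 3 and 2 Smoc2 UMIs. In myeloid cells it was 0.76, 0.54 and 1.67 times and in endothelial cells 0.21, 2.24 and 2.68 times, on 1 to 5 Smoc2 UMIs each. Mural cells had 5.75, 2.03 and 0.54 times, on 4, 1 and 4 Smoc2 UMIs. Neuronal cells had 1.58, 2.93 and 1.12 times, on 2, 3 and 11, and glial cells 0.48, 0.93 and 2.69 times, on 1, 2 and 4. Of Krt6a- epithelial cells, 55.7% carried a Smoc2 UMI in control 1, 57.2% of cells in control 2 and 45.8% in the mutant library, against 11.8%, 1.2% and 2.2% of myeloid cells. Median depths were 11152, 6731.5 and 5733 UMIs in this epithelium and 10015.5, 6706.5 and 5154 UMIs in myeloid cells. Thinning to 2000 UMIs per cell dropped 3, 2 and 8 of these epithelial cells and 2, 5 and 3 of the myeloid cells as too shallow, and the shares were then 21.4%, 30.1% and 24.0% in Krt6a- epithelium. Thinned myeloid cells had a Smoc2 UMI in 0 of 32 cells (control 1), 0 of 81 (control 2) and 2 of 134 (mutant), which allows shares of cells with a UMI of up to 10.9%, 4.45% and 5.29% (exact Clopper-Pearson limits) and sets no limit on cells that express the gene.

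Within Krt6a- epithelium, cells with and without a Smoc2 UMI were set side by side, and the genes with the largest differences were read off. Raised genes had to reach 50 CPM in every library in cells with the UMI, and reduced genes in cells without it. Cells with a Smoc2 UMI (59, 79 and 103 cells) had 105 CPM of Ptch1 in control 1, 113 CPM in control 2 and 105 CPM in the mutant, against 35.8, 30.1 and 33.7 CPM in cells without one (47, 59 and 122 cells). Ptch1 encodes the Hedgehog receptor and is itself a transcriptional target of Hedgehog signaling. The genes next highest in cells with Smoc2 were Tacc3, a spindle protein gene, Sox6, a transcription factor gene, Fgfbp1, whose product releases FGF from the matrix, and Gm12446. Sox6 stood at 51.2, 117 and 72.1 CPM in cells with Smoc2 against 19.0, 38.3 and 37.9 CPM in cells without. The most reduced genes were Lypd2, Cldn7, Mgst1, Cxcl14 and S100a6. Cldn7, which encodes a tight junction claudin, stood at 122, 70.0 and 45.5 CPM in cells with Smoc2 against 246, 230 and 89.8 CPM in cells without. Each of these 10 genes moved the same way in the 3 libraries, which is how they were chosen, and the cells with a Smoc2 UMI were also the deeper ones, with medians of 11424, 8269 and 6339 UMIs against 10624, 4615 and 5127.

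**Figure D2:**
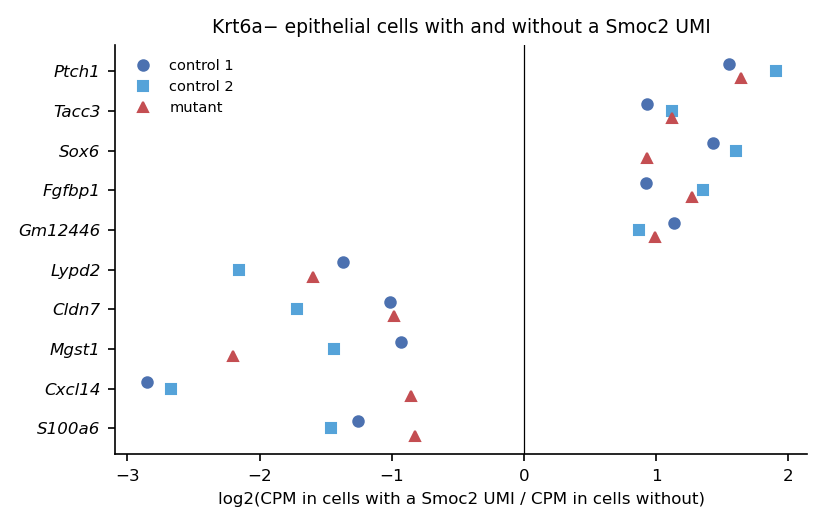
Log2 ratio of the CPM in Krt6a- epithelial cells with a Smoc2 UMI to the CPM in those without (x axis), for the 5 genes most raised and the 5 most reduced in all 3 libraries (y axis), with 1 point for each library. Ptch1 led the raised genes, at 105 to 113 CPM with Smoc2 and 30.1 to 35.8 CPM without. Ranked genes reached 50 CPM in every library, in cells with Smoc2 (raised) or without (reduced).

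Divided by Ptch1, which restates the same association, Krt6a- epithelial cells with a Ptch1 UMI had 144 CPM of Smoc2 in control 1, 378 CPM in control 2 and 226 CPM in the mutant. Cells without Ptch1 had 95.2, 179 and 146 CPM and were shallower, with medians of 8773, 5752 and 5316 UMIs against 13410, 8707 and 8395. The cells with Ptch1 made up 40.6% of Krt6a- epithelium in control 1, 31.9% of cells in control 2 and 22.2% in the mutant library. Sparc went the other way, at 331, 277 and 403 CPM with Ptch1 and 392, 316 and 456 CPM without. Its counting intervals with and without Ptch1 overlapped in every library. This division of the cells was chosen after seeing the data.

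The same reading was made in mesenchyme, where Thbs2 led the genes that were higher in cells with Smoc2. Mesenchymal cells with a Smoc2 UMI (469, 482 and 1092 cells) had 65.0, 66.0 and 142 CPM of Thbs2, another matricellular gene, against 37.8, 35.7 and 79.2 CPM in those without. Igfbp5, an IGF-binding protein gene, Antxr1, a collagen-binding receptor gene, Pmepa1, a known target of TGF-β signaling, and Maf, a transcription factor gene, came next. Pmepa1 stood at 74.4, 83.0 and 72.0 CPM with Smoc2 and 51.2, 57.7 and 40.8 CPM without. Among the genes lower in cells with Smoc2 were Meox2 and Lsp1, and Lsp1 is one of the markers of the midline type. Cells with Smoc2 were the deeper ones here too, with medians of 8603, 6703.5 and 8844 UMIs against 7722, 4976 and 4940. Over the 11 types, the genes whose levels were most like that of Smoc2 among 4743 genes were Fras1 (Pearson r = 0.951), Flywch2 (r = 0.938) and Gsta4 (r = 0.927). Fras1 encodes an extracellular matrix protein of the epithelial basement membrane.

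The comparison of genotypes asked which levels change when the TGF-β receptor is deleted in the palatal mesenchyme. The log2 ratio was the mutant level less the mean log2 level of the controls. A gene was counted as lower or higher where its mutant level was outside the range of the controls and this ratio passed both limits. It had to be larger than the gap between the controls and reach 1.5-fold. The mutant could thus differ from the nearer control by less than the gap or 1.5-fold. Smoc2 met this rule in perimysial cells. There the controls stood at 188 and 152 CPM and the mutant at 102 CPM. The log2 ratio was -0.73 beside a gap of 0.31. The mutant was 0.604 of the controls, and its counting interval [79.3 to 129] overlapped that of control 2 [117 to 193]. Of the 9500 genes measured in these cells at 10 CPM or more, 13.2% were counted as lower and 7.44% as higher, and among the 3497 genes at 50 CPM or more, 8.61% were lower and 3.63% higher, so that a fall of this size was met by many genes. Leaving out control 1 gave a log2 ratio of -0.57, leaving out control 2 gave -0.88, and the other settings tried gave -0.62 to -0.82. The epithelial, myogenic, myeloid, neutrophil and hemoglobin lists fell in the same order as Smoc2 in the perimysial gate. The chondrogenic list rose, at 19.8, 39.7 and 57.6 CPM, and the mural, endothelial, glial and neuronal lists were lowest in control 2. The epithelial list, of the type with the most Smoc2, summed to 64.9, 30.4 and 23.6 CPM with 5, 3 and 4 of its 6 markers found, and Trp63 was at 0 in every library. The myogenic list summed to 135, 35.0 and 20.7 CPM with 6, 3 and 2 of 8 found, Pax7 and Myf5 being at 0, and the myeloid list to 45.2, 11.7 and 0 CPM with 5, 3 and 0 of 6 found. The part of these cells in the Smoc2 difference was not tested. The markers that the gate itself selects for, Hic1 and Ebf2, stood at 206, 254 and 254 CPM and at 233, 341 and 306 CPM. Shares of perimysial cells with a Smoc2 UMI were 60.0%, 43.4% and 33.1%, and after thinning 26.2%, 18.3% and 17.4%.

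In most other types the Smoc2 difference did not exceed the gap between the controls. Over all mesenchymal cells it stood at 102 CPM in control 1, 65.1 CPM in control 2 and 66.3 CPM in the mutant, a log2 ratio of -0.30 beside a gap of 0.65. The same held in Krt6a- epithelium, with a log2 ratio of -0.05 beside a gap of 1.08, in other mesenchymal cells, with -0.32 beside 0.40, and in osteogenic cells, with -1.22 beside 1.48. Krt6a+ epithelium was lower beyond the gap (-0.52 against 0.31) but by less than 1.5-fold. Tendon cells went the other way, with 23.8, 36.6 and 57.9 CPM and a log2 ratio of 0.97 beside a gap of 0.62, where 3.88% of genes were counted as higher, but control 1 held 3 Smoc2 UMIs in 16 cells.

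**Figure D3:**
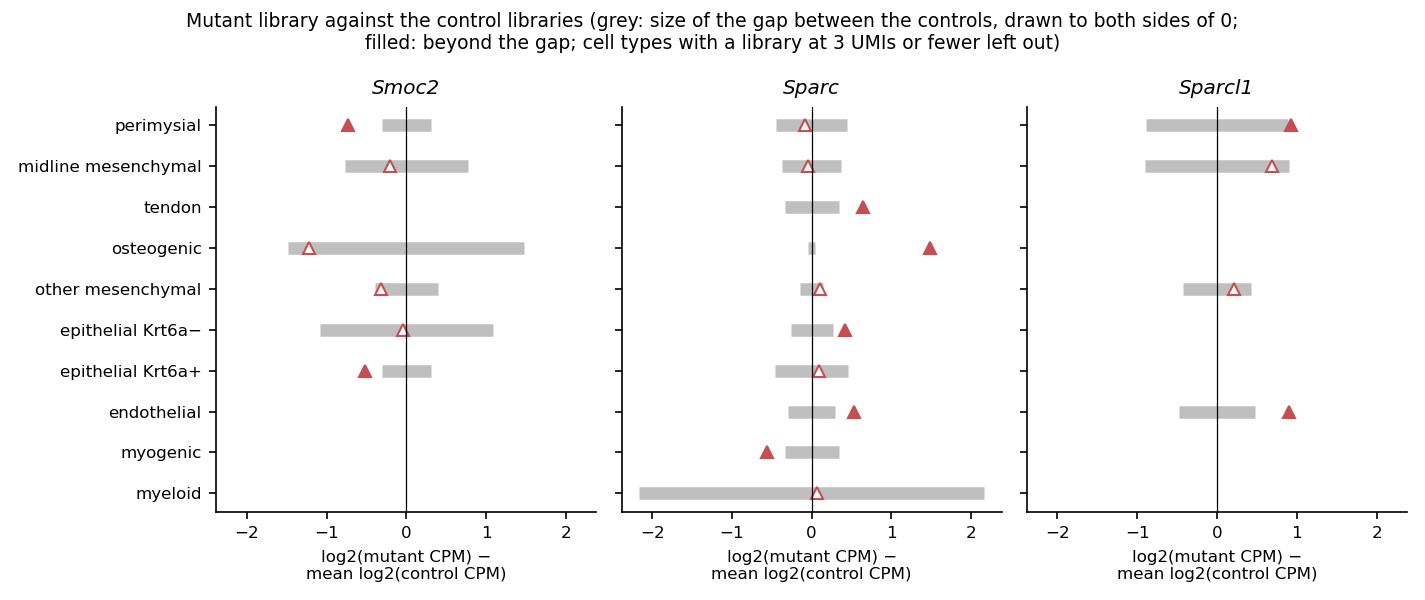
Log2 level in the mutant less the mean log2 level of both controls, from CPM (x axis) by cell type (y axis) for each gene, with grey bars for the size of the gap between the controls on both sides of 0 and filled points beyond that gap. Smoc2 was beyond the gap below 0 in perimysial cells (-0.73), Sparcl1 above 0 in perimysial (0.93) and endothelial cells (0.90), and Sparc above 0 in osteogenic cells (1.49).

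Sparc was led by the endothelium. Endothelial cells held 1552 CPM in control 1, 1263 CPM in control 2 and 2017 CPM in the mutant, a mean of 1610 CPM ± 380.4 (SD, n = 3), and their range overlapped that of no other of the 11 types. The edgeR quasi-likelihood test put Sparc 1.98 ± 0.16 higher on the log2 scale there than in the mean of the other types (SE, Benjamini-Hochberg adjusted p = 5.51e-13, with 21.0% of genes called higher). Perimysial cells (679, 500 and 548 CPM), midline cells (655, 507 and 560 CPM) and other mesenchymal cells (565, 510 and 579 CPM) were alike within their spread. Between perimysial and other mesenchymal cells the difference was 0.01 ± 0.25 on the log2 scale (SE, edgeR, adjusted p = 0.999). Glial cells, too few in control 1 to be tested, held 1179, 831 and 1227 CPM in 9, 28 and 128 cells.

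The lowest Sparc was in myeloid cells, at 137 CPM in control 1, 30.6 CPM in control 2 and 68.0 CPM in the mutant, lower than the mean of the other types by -2.62 ± 0.28 (edgeR, adjusted p = 3.37e-10). For each Col1a1 UMI, myeloid cells had 1.33, 1.29 and 2.98 times the Sparc of mesenchyme, and a Sparc UMI was found in 58.8%, 15.1% and 11.7% of them. Myogenic cells (313, 247 and 189 CPM) were lower by -0.62 ± 0.21 (edgeR, adjusted p = 0.0165), a call that was lost without the mutant (-0.39, edgeR adjusted p = 0.150), without a term for the library (adjusted p = 0.0808) and when cells had to reach 1 marker list only (adjusted p = 0.0882). Relative to Col1a1, myogenic cells had 3.04, 8.31 and 5.92 times the Sparc of mesenchyme. Epithelial cells also held more Sparc for each Col1a1 UMI than mesenchyme, with 7.41, 2.71 and 6.17 times in Krt6a- and 11.3, 8.23 and 9.87 times in Krt6a+ epithelium, at levels of 361, 301 and 440 CPM and of 441, 607 and 553 CPM. Neither epithelial type passed the edgeR quasi-likelihood test against the mean of the others (adjusted p = 0.119 and 0.453).

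Osteogenic cells had the largest difference in Sparc between the genotypes. They held 438 CPM [384 to 496] in control 1, 452 CPM [337 to 595] in control 2 and 1248 CPM in the mutant, which is 2.81-fold the controls and a log2 ratio of 1.49 beside a gap of 0.05, where 2.47% of genes were counted as higher. Only 47 and 13 control cells stood against 171 mutant cells, and with a gate of 3 markers control 2 stood at 815 CPM and the log2 ratio was 1.0 beside a gap of 0.71. Genes of bone-forming cells were unequal between the same libraries. Ibsp, which encodes bone sialoprotein, stood at 387, 1783 and 2109 CPM and Ifitm5, a gene of mineralizing osteoblasts, at 105, 435 and 662 CPM. Col1a1 stood at 1398, 1357 and 2516 CPM, while Sp7, the osteoblast transcription factor gene, was at 203, 204 and 205 CPM. Ibsp, Ifitm5 and Sp7 are among the markers by which the gate selects these cells, so their levels depend on that selection. The mural list was higher in the same order, at 74.1, 106 and 224 CPM with 3, 1 and 3 of its 6 markers found, and its markers Rgs5, Kcnj8 and Higd1b were at 0 in the mutant. The part of these genes in the Sparc difference was not tested. The higher Sparc of osteogenic cells against the mean of the other types (0.84 ± 0.19, edgeR, adjusted p = 0.00157) was lost without the mutant (0.09, edgeR, adjusted p = 0.975).

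Elsewhere the differences in Sparc were smaller. Tendon cells held 373, 471 and 655 CPM, a log2 ratio of 0.65 beside a gap of 0.34. Endothelial cells (0.53 beside 0.30), Krt6a- epithelium (0.42 beside 0.26) and all mesenchymal cells (0.25 beside 0.20) were higher in the mutant beyond the gap but by less than 1.5-fold. Myogenic cells were lower in the mutant, with a log2 ratio of -0.56 beside a gap of 0.34, also by less than 1.5-fold. In perimysial cells the mutant lay between the controls, with a log2 ratio of -0.09.

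Sparcl1 was a gene of the endothelium in these libraries. Endothelial cells held 260 CPM [193 to 343] in control 1, 187 CPM [156 to 222] in control 2 and 411 CPM [381 to 444] in the mutant, a mean of 286 CPM ± 114.3 (SD, n = 3). No other of the 11 types came near this range. Epithelium lacked the gene almost entirely, with 1, 3 and 3 UMIs in all Krt6a- cells of control 1, control 2 and the mutant and none in Krt6a+ cells, where 3 UMIs would have been 10.6, 8.55 and 7.40 CPM. Because a type without a UMI upsets the mean of the other types, Sparcl1 was tested in a fit without Krt6a+ epithelium, chosen after seeing the data. In that edgeR quasi-likelihood fit Sparcl1 was 4.65 ± 0.19 higher on the log2 scale in endothelial cells than in the mean of the others (SE, Benjamini-Hochberg adjusted p = 4.47e-22), with 21.5% of the 10546 genes called higher. Mural cells, the pericytes and smooth muscle cells of vessels, held 135, 95.8 and 61.3 CPM but numbered only 4, 3 and 32.

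The mesenchymal types held less Sparcl1 than endothelium. Perimysial cells held 35.3 CPM in control 1, 65.4 CPM in control 2 and 91.6 CPM in the mutant, midline cells 24.2, 45.3 and 53.4 CPM, and other mesenchymal cells 23.4, 31.5 and 31.5 CPM. In the fit without Krt6a+ epithelium, perimysial cells were higher than the mean of the others by 2.13 ± 0.28 (edgeR, adjusted p = 3.61e-07, 13.2% of genes called higher) and midline cells by 1.48 ± 0.22 (edgeR, adjusted p = 1.31e-06, 21.1% called higher). Against other mesenchymal cells, Sparcl1 was 1.06 ± 0.27 higher in perimysial cells in the fit over all 11 types (edgeR, adjusted p = 0.0224, and 0.0194 without Krt6a+ epithelium), where Smoc2 had not passed. The call over all 11 types was lost in the alternative fits with DESeq2 (1.08, adjusted p = 0.272), with edgeR without a library term (1.09, adjusted p = 0.223), without control 2 (1.11, edgeR adjusted p = 0.152) and without the mutant (0.79, edgeR adjusted p = 0.461). Osteogenic cells had 21.7, 0 and 7.6 CPM and tendon cells 15.9, 9.8 and 29.7 CPM.

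The genes most like Sparcl1 over the 11 types were Igfbp7 (Pearson r = 0.983), Lama4 (r = 0.960), which encodes a laminin chain of vessel basement membranes, and Cd34 (r = 0.955), a surface marker of blood vessel endothelium. For Sparc they were Mpzl1 (r = 0.974), Ptk2 (r = 0.963), the gene of focal adhesion kinase, and Ppic (r = 0.963). These likenesses were all led by the endothelial type and describe 11 points. For Sparcl1 the points of both epithelial types and of myeloid cells were not measured levels. Its counts there were 3 UMIs or fewer and were set to 3, as were those of any other gene so low.

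Sparcl1 was counted as higher in the mutant in endothelial and in perimysial cells. In endothelial cells the log2 ratio was 0.90 beside a gap of 0.48, or 1.86-fold, with 3.60% of 9455 genes counted as higher and 7.67% as lower. A Sparcl1 UMI was found in 41.2% of endothelial cells in control 1 (7 of 17 cells), 40.8% of cells in control 2 and 76.8% in the mutant library, and in 38.5%, 16.2% and 52.7% after thinning. In perimysial cells the log2 ratio was 0.93 beside a gap of 0.89, or 1.91-fold. Of 9500 genes there, 7.44% were counted as higher and 13.2% as lower. The Sparcl1 ratio was scarcely beyond the gap and fell within it with a gate of 3 markers (0.72 beside 0.93). Without control 1 it was 0.49 and without control 2 it was 1.38. The endothelial list, of the type that led Sparcl1, stood in the perimysial gate at 24.0, 18.7 and 44.3 CPM with 6, 2 and 5 of its 6 markers found, and Cldn5 was at 0 in control 2 and the mutant. The part of these markers in the perimysial difference was not tested. In midline cells (0.69 beside 0.91) and other mesenchymal cells (0.22 beside 0.43) the ratio did not exceed the gap.

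The endothelial gate was also divided by lymphatic genes. Lymphatic endothelium is marked by Prox1, Lyve1, Ccl21a and Mmrn1, and a UMI of at least 2 of these 4 genes was found in 29.4% of endothelial cells in control 1 (5 of 17), 25% of cells in control 2 (19 of 76) and 12.1% in the mutant library (27 of 224). Exact Clopper-Pearson 95% intervals of these shares overlapped, at 10.3 to 56.0%, 15.8 to 36.3% and 8.10 to 17.1%. Cells with at least 2 of the genes were deeper, with medians of 10089, 13800 and 13743 UMIs. The other endothelial cells had medians of 8512, 5800 and 5238 UMIs. In the cells with at least 2 of the genes, Sparcl1 stood at 179, 61.6 and 42.9 CPM and Sparc at 1413, 561 and 646 CPM. The 179 CPM of control 1 came from 1 cell. Cells with fewer than 2 of the genes held 339, 278 and 513 CPM of Sparcl1, a log2 ratio of 0.74 beside a gap of 0.29. Their Sparc stood at 1686, 1773 and 2395 CPM, with a log2 ratio of 0.47 beside a gap of 0.07. Cells with exactly 1 of the genes numbered 4, 13 and 31, and the gene was Mmrn1 in 4, 11 and 23 of them. Their Sparcl1 was lower in the mutant, at 454 [260 to 738], 434 [328 to 563] and 323 CPM [259 to 397], with overlapping intervals. In cells with none (8, 44 and 166 cells) Sparcl1 was higher in the mutant, at 274, 205 and 566 CPM. These divisions were also chosen after seeing the data.

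**Figure D4:**
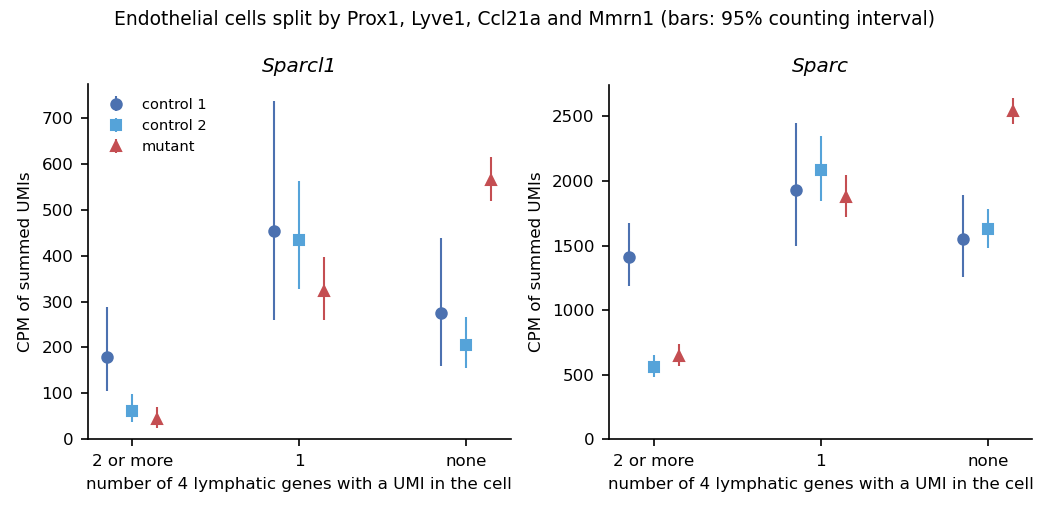
CPM of summed UMIs (y axis) of Sparcl1 and Sparc in endothelial cells with a UMI of none, 1 or at least 2 of 4 lymphatic genes (x axis), for control 1, control 2 and the mutant, with bars for the 95% counting interval. Sparcl1 reached 566 CPM in mutant cells with none of the genes and 42.9 CPM in mutant cells with at least 2.

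Endothelial cells with and without a Sparcl1 UMI were set side by side as well, and the genes named were chosen for a difference of one sign in the 3 libraries. Cells with Sparcl1 were deeper, with medians of 10949, 8296 and 5791 UMIs against 4444.5, 5303 and 4833.5. They had 443 CPM of Cd34 in control 1, 488 CPM in control 2 and 508 CPM in the mutant, against 45.3, 143 and 142 CPM in cells without. Ccl21a, the lymphatic chemokine gene, stood at 9.6, 406 and 219 CPM with Sparcl1 and at 3308, 3257 and 5484 CPM without. Igfbp3 and Nrp1, a coreceptor of VEGF, were higher with Sparcl1, and Nts and Thy1 were lower.

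Markers on the lists of other cells were read in the endothelial gate as well. Of the 6 neuronal markers, 1, 4 and 5 were detected there in control 1, control 2 and the mutant, with summed levels of 20.8, 27.4 and 294 CPM. Most of it was Stmn2, a gene of growing axons, at 20.8, 18.7 and 287 CPM, found in 11.8%, 7.89% and 28.6% of the cells. The cells with a Stmn2 UMI (2, 6 and 64) held 800, 2419 and 2732 CPM of Sparc. Their Sparcl1 stood at 72.8, 335 and 477 CPM. What these cells are was not tested. Without the cells that held a Stmn2 UMI, Sparcl1 stood at 275, 168 and 381 CPM, a log2 ratio of 0.83 beside a gap of 0.71. Sparc then stood at 1609, 1111 and 1688 CPM and was no longer beyond the gap (0.34 beside 0.53). The mural markers were at 20.8, 13.0 and 19.8 CPM, with Higd1b, Cspg4 and Ndufa4l2 at 0, and the hemoglobin list at 3259, 859 and 4315 CPM. Egfl7, an endothelial gene that is not among the gate markers, stood at 776, 865 and 1181 CPM. The part of these differences in the Sparcl1 and Sparc ratios was not tested.

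Smoc1 was near the limit of detection. Over all cells kept it had 39 UMIs (1.9 CPM) in control 1, 57 UMIs (2.3 CPM) in control 2 and 230 UMIs (4.3 CPM) in the mutant. Mesenchymal cells held 2.2 CPM [1.4 to 3.3], 2.8 CPM [2.0 to 3.9] and 4.1 CPM [3.4 to 4.9], a log2 ratio of 0.73 beside a gap of 0.33, but at less than the 10 CPM asked of a counted gene. The highest levels rested on 6 UMIs each, in 77 chondrogenic cells of the mutant (16.8 CPM) and in perimysial cells of control 2 (14.0 CPM), while perimysial cells of control 1 had 0 and those of the mutant 3 UMIs. Of the single types, other mesenchymal cells of the mutant held the most UMIs, 46 in 2128 cells (4.2 CPM). Smoc1 did not pass the filter of the cell type test, so no difference between the types was tested. In the mutant, 273 neuronal cells held 14 UMIs (6.68 CPM [3.65 to 11.2]) and 224 endothelial cells held 0 [0 to 2.28 CPM]. Neuronal cells of control 1 and control 2 held 0 UMIs, in 13 and 8 cells.

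Of the wider SPARC family, Fstl1 was the abundant gene, and the testicans Spock1, Spock2 and Spock3 were mostly highest in neuronal cells. Spock2 also reached 31.3 CPM in Krt6a+ epithelium of control 2, against 13.0 CPM in the 8 neuronal cells of that library. Spock3 reached 20.1 CPM in tendon cells of the mutant. Fstl1, which encodes a secreted glycoprotein, stood at 670, 738 and 533 CPM in perimysial cells and 574, 706 and 432 CPM in other mesenchymal cells, lower in the mutant beyond the gap but by less than 1.5-fold (-0.40 in perimysial cells). In myogenic cells, at 151, 91.2 and 52.8 CPM, its log2 ratio was -1.15 beside a gap of 0.73. Spock3 was the one of 3 measured family genes counted as higher in perimysial cells, at 8.5, 9.3 and 16.3 CPM, beside 7.44% of all genes, and none was counted as lower, beside 13.2%. In perimysial cells 3 UMIs equalled 4.2, 7.0 and 4.4 CPM, so the Spock3 levels rested on few UMIs. Over all mesenchymal cells none of the 2 measured genes was counted in either direction.

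The functional neighbours of these genes were described by lists of genes. In perimysial cells, where 13.2% of all genes were counted as lower and 7.44% as higher, 1 of 11 measured matricellular genes was counted as lower and 2 as higher, with a median log2 ratio of 0.13 against -0.08 over all genes. Spp1, which encodes osteopontin, had the largest rise, at 9.9, 7.0 and 42.9 CPM. Of 10 matrix and receptor partners of SPARC, 2 were counted as lower and none as higher, with a median of -0.01, and Col3a1, the gene of type III collagen, stood at 1606, 887 and 652 CPM. Of 7 BMP ligands and antagonists, 1 was lower and 2 higher. Bmp4 stood at 25.4, 18.7 and 53.2 CPM. Chrd, the gene of the antagonist chordin, stood at 12.7, 11.7 and 3.0 CPM, the last below the 4.4 CPM that 3 UMIs equalled.

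Over all mesenchymal cells, where 4.14% of 9107 genes were counted as lower and 2.22% as higher, 2 of 9 matricellular genes were lower and 2 higher. Scaling by TMM factors (edgeR's trimmed mean of M values) in place of total UMIs turned that split of all genes from 377 lower and 202 higher to 245 lower and 321 higher. Tgfbi, a gene named for its induction by TGF-β, stood at 46.1, 62.8 and 29.7 CPM, and Thbs2 at 51.3, 45.3 and 109 CPM. Of the 10 partners of SPARC, 1 was lower and none higher: Col4a1, a basement membrane collagen gene, at 55.1, 58.2 and 35.9 CPM. Of 6 BMP genes, 1 was lower and 1 higher, and Bmper, a secreted BMP modulator gene, stood at 8.7, 7.4 and 14.7 CPM.

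In endothelial cells the lists held lower genes only, and mesenchymal Col1a1 was among them. Of 12 partners of SPARC, 3 were counted as lower and none as higher, beside 7.67% and 3.60% of all genes, led by Col1a1 at 396, 84.9 and 30.3 CPM, and of 4 matricellular genes 1 was lower, Tnc at 31.2, 23.0 and 3.7 CPM. Col4a2, a collagen gene of the vessel basement membrane, stood at 401, 356 and 403 CPM. In osteogenic cells, where 2.47% of all genes were counted as higher, 4 of 10 partners were, and Col5a1 stood at 45.2, 44.4 and 119 CPM, beside the higher Sparc of the same cells.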

How the data were processed

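Soft palate libraries were made with 10x 3′ v2 chemistry by the authors, who deposited the unnormalized UMI count of every gene in every barcode. Cell Ranger 4.0.0 is named per the file headers and the protocol, and 3.1.0 with mm10 in the submitters' processing notes. Barcodes were dropped below 500 genes or above 10% mitochondrial UMIs (699, 246 and 579). Scrublet's own threshold marked 0 barcodes, so the highest scores were left out, at 0.8% of the barcodes per 1000 barcodes and including every tie at the last score (86, 172 and 624). A cell took the type of the marker list with the most markers found, at least 2 and leading by 2 any other list that reached 2. A cell that reached the mesenchymal list was given no other type, whatever the lead. A mesenchymal cell could thus hold 2 or more markers of another list. Cells with more than 20% hemoglobin UMIs were called erythroid regardless of the other lists. Perimysial cells were mesenchymal cells with UMIs of both Hic1 and Ebf2. This rule was set after values were seen. The 4 genes and the lists were chosen with earlier results of these data known.

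Levels are CPM of summed counts. A count of 3 UMIs or fewer was set to 3 in log2 ratios and in the log2 levels that were correlated. A gene at 3 UMIs or fewer in a control was not counted as lower, nor one so in the mutant as higher. The threshold was 1.5-fold at 10 CPM. The genotypes were not tested. Cell types were compared with edgeR 4.0.16 (R 4.3.3; glmQLFit and glmQLFTest, TMM, filterByExpr, library as a block) on counts summed per type and library, with Benjamini-Hochberg adjustment at 0.05, checked on simulated counts. DESeq2 1.42.0, other gates, filters and scalings, and leaving out each library were the alternatives. Named genes are the 4 genes, 4 family genes, and the genes of each list with the largest rise and fall. The 3 most alike genes had at least 50 CPM in some type. Genes that went with a UMI (the 5 largest each way with 1 sign in every library) and marker checks were named after values were seen. Such genes had at least 50 CPM in every library, in cells with the UMI (raised) or without it (reduced). p-values measure the spread between these libraries. Gene positions and sequences came from GENCODE on GRCm38. Scanpy 1.11.5 under Python 3.11.15 was used. Protein sequences were not used here.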

Additional observations from a re-analysis of the deposited data

Results flagged for a closer look

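Sparc differed from the controls in opposite directions in different cell types. The mutant exceeded both controls, beyond the gap between them, in tendon cells (log2 ratio 0.65), osteogenic cells (1.49), endothelial cells (0.53) and Krt6a- epithelium (0.42), and lay below both controls in myogenic cells (-0.56). Only the tendon and osteogenic ratios reached 1.5-fold, and the fall in myogenic cells did not. Without the cells that held a Stmn2 UMI, the endothelial ratio was 0.34 beside a gap of 0.53. In control 1, control 2 and the mutant those cells held 800, 2419 and 2732 CPM of Sparc. The other endothelial cells held 1609, 1111 and 1688 CPM. With 1 mutant library the difference between the cell types was not tested.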

How the results depend on the processing

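No called ratio or fold of a single gene turned its sign under the alternatives run. Of 127 recomputed genotype ratios 109 changed by less than 1 SD of the controls and 18 by more, of 96 levels 82 changed by less than 1 SD and 14 by more, of 98 counts of called genes 81 stayed within 1.5 times, and of 160 folds between cell types 150 kept their side of the threshold. The genes counted in perimysial cells fell to 301 lower and 127 higher at a minimum of 50 CPM, and over all mesenchymal cells to 126 and 64. TMM factors, by a changed scale, turned the majority over all mesenchymal cells from lower (377 lower and 202 higher) to higher (245 lower and 321 higher). With no filter on low counts, edgeR called 3364 genes higher in other mesenchymal cells. Leaving out a library in turn gave 1378 to 2281 genes higher and 623 to 1326 lower in endothelial cells, 414 to 1115 higher in osteogenic cells, 1166 to 2005 lower in myeloid cells and 932 to 1311 lower in myogenic cells, fewest without the mutant. Between perimysial and other mesenchymal cells it gave 43 to 182 genes higher, and 49 without a library term. Sparcl1 in that contrast was 1.08 by DESeq2 (adjusted p = 0.272), 1.09 by edgeR without a library term (adjusted p = 0.223) and 0.79 to 1.27 with a library left out (edgeR, adjusted p = 0.461 without the mutant and 0.152 without control 2). The cause was not tested. No paired analysis was possible because the groups share fewer than 2 replicate numbers. Smoc1 and the small control types are limited by depth, since 3 UMIs equalled 10.6 CPM in Krt6a+ epithelium of control 1.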
